A study of Homo sapiens with 2 samples.

Results

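The genes described here encode the proteins of the human mitochondrial ribosome. They were chosen by name, as protein-coding genes of GENCODE release 44 whose symbol is MRPL or MRPS followed by a number and, in some, a letter, and were matched by Ensembl identifier. The rule found 78 genes of the 58735 in the deposited tables, 49 of them named MRPL and 29 named MRPS. Their levels were measured in MCF10a-Snail-ER cells, a line derived from non-tumorigenic human mammary epithelium that stably carries a fusion of the repressor Snail to the estrogen receptor. Tamoxifen at 100 nM, given for 1 day, activates the fusion and initiates an epithelial-to-mesenchymal transition, and no untreated library was analysed here. One library was sequenced as native polyadenylated RNA on a Nanopore MinION (SQK RNA01 kit), and the other as fragmented, amplified cDNA from a TruSeq stranded mRNA kit on an Illumina instrument. Both groups therefore share the line, the transgene and the treatment, and differ in how the RNA was read and aligned. The sample labels do not show whether both came from the same culture or RNA preparation. With 1 library each, such a difference cannot be told apart from that of the platforms.

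Mitochondria keep a small genome that codes for core subunits of the respiratory chain and of ATP synthase, and these proteins are made inside the organelle by a dedicated ribosome. The RNA of that ribosome comes from mitochondrial DNA, while its proteins are coded in the nucleus, made in the cytosol and imported. Some of the proteins descend from bacterial ribosomal proteins and others have no bacterial counterpart. Names are not a strict guide to position: MRPS30 and MRPS18A sit in the large subunit, and the protein of MRPS36 is now known as a subunit of the 2-oxoglutarate dehydrogenase complex. With these placed by structure, 51 of the genes belonged to the large subunit and 26 to the small subunit.

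Over all genes there were 403235 counts by Nanopore and 191741714 by Illumina. A single Nanopore count was worth 2.48 counts per 1000000 (CPM), and 3 counts, the smallest number read as a level, corresponded to 7.44 CPM. The platforms had 1 library each, so no spread between replicates exists, and all intervals and tests below cover counting error in these libraries only. The labelled cell type was checked with marker genes: 12 of 12 basal mammary epithelial markers were detected in both libraries, at 1.00% of Nanopore and 1.23% of Illumina counts. Of the basal marker counts, S100A2 alone held 2415 of 4050 by Nanopore and 1473852 of 2367918 by Illumina. The 4 luminal markers were also detected in both, GATA3 with only 4 Nanopore counts. ESR1 held 389 of their 663 Nanopore and 27469 of their 131741 Illumina counts. As the cells carry an estrogen receptor fusion, ESR1 is not read here as a luminal marker. The luminal signal did not come from ESR1 alone, since KRT8 reached 157 counts by Nanopore and 40083 by Illumina. KRT18 reached 113 by Nanopore and 61710 by Illumina. A list of 4 endothelial markers summed to 1 and 1268 counts. The 5 fibroblast markers summed to 11 and 6254, most of it from DCN with 10 and 5075.

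All 78 genes were detected on both platforms. Of all 58735 identifiers, 15660 (26.7%) had a Nanopore count and 27323 an Illumina count. For the 78 genes, Nanopore counts ran from 9 to 65 with a median of 26, and Illumina counts from 4186 to 49701 with a median of 12233. In CPM, the median member stood at 64.5 by Nanopore and 63.8 by Illumina. Together the genes took 2206 Nanopore counts, 0.547% of the library (Wilson 95% interval 0.525 to 0.570), and 1102231 Illumina counts, 0.575% (0.574 to 0.576). The large-subunit genes took 1458 and 703171 of these counts, and the small-subunit genes 721 and 386948. The ratio of large-subunit to small-subunit counts was 2.02 by Nanopore and 1.82 by Illumina, as sums over genes and not per gene.

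By Nanopore, the most abundant members were MRPL33 and MRPS24 with 65 counts each, MRPS21 with 64, MRPL51 with 61 and MRPL3 with 56. The lowest were MRPS18B, MRPS17, MRPL1 and MRPS31 with 9 counts each, or 22.3 CPM with a Wilson interval from 11.7 to 42.4. At this depth the order within the family is coarse, since the intervals of 46 of the 78 genes held the family median of 64.5 CPM. For comparing genes with each other by Illumina, counts were divided by the length of the GENCODE canonical transcript and scaled to a sum of 1000000 (transcripts per 1000000, TPM). On that scale the highest levels were those of MRPL51 at 447 TPM, MRPL33 at 313, MRPL24 at 307, MRPS21 at 270 and MRPL27 at 237. MRPL27 and MRPL33 are the counterparts of the bacterial proteins bL27 and bL33, and MRPL51 has no bacterial counterpart.

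The lowest per-length levels depended on which exons were counted in the length. By canonical transcript length, MRPL42 stood at 8.36 TPM with a transcript of 15557 bases, and MRPL19 at 9.42 TPM with 7825 bases. By the union of all annotated exons, the lowest were MRPS22 at 8.85 TPM, MRPL46 at 9.24 and MRPS25 at 9.91. The relative spread over the 78 genes, as the SD divided by the mean, was 47.7% for Nanopore CPM, 53.2% for Illumina CPM and 80.3% for Illumina TPM by canonical length. By Nanopore, MRPL42 had 34 counts or 84.3 CPM, above the family median, and MRPL19 had 19 counts or 47.1 CPM, below it.

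**Figure D1:**
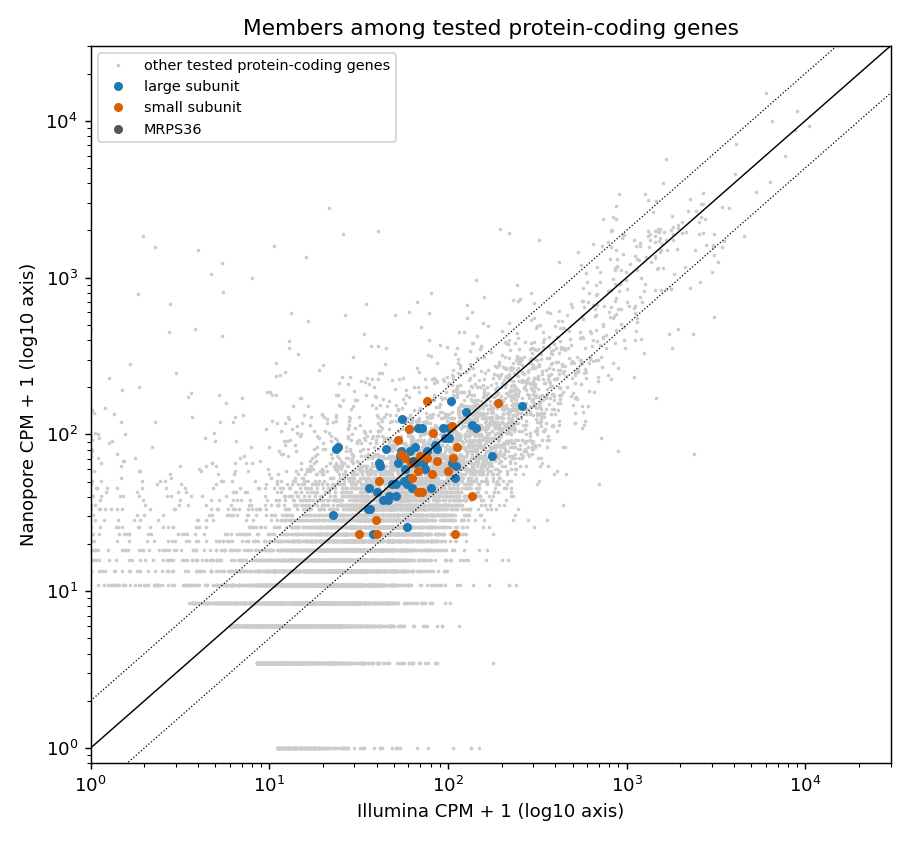
Larger points are the 78 genes, and small grey points are other tested protein-coding genes. Illumina CPM is on the horizontal and Nanopore CPM on the vertical axis, each with 1 added, both on log scales. Levels of the 78 genes lie between 21.8 and 259 CPM by Illumina and between 22.3 and 161 CPM by Nanopore. Of these 78 genes, 9 lie past the 2-fold lines.

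The comparison open to these data was the level of each gene by Nanopore against its level by Illumina. It is given as a log2 ratio of the CPM values, each with 1 added, so that a positive value is a higher Nanopore level. Over the 78 genes the median ratio was -0.09, with quartiles at -0.43 and 0.31 and a range from -2.22 to 1.78. It was above 0 for 34 genes and below 0 for 44. The tested genes were the 12414 whose mean over both libraries reached 5 CPM, and their median was -0.42. Over the 5234 tested protein-coding genes in the same range of mean CPM as the family, the median was -0.57.

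Of the 78 genes, 69 (88.5%) lay within 2-fold between the libraries. The same share was 50.5% of all tested genes and 59.0% of the protein-coding genes in the same range of CPM. Past 2-fold lay 4 genes toward Nanopore and 5 toward Illumina. The background for these counts was 19.2% of all tested genes past 2-fold in the first direction and 30.2% in the second, and 8.79% and 32.3% of protein-coding genes in the same CPM range. All 9 also passed a two-sided exact binomial test given the library totals, adjusted by the Benjamini-Hochberg method over all tested genes. Adding that test to the 2-fold rule, the background over all tested genes was 17.7% and 21.7%.

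**Figure D2:**
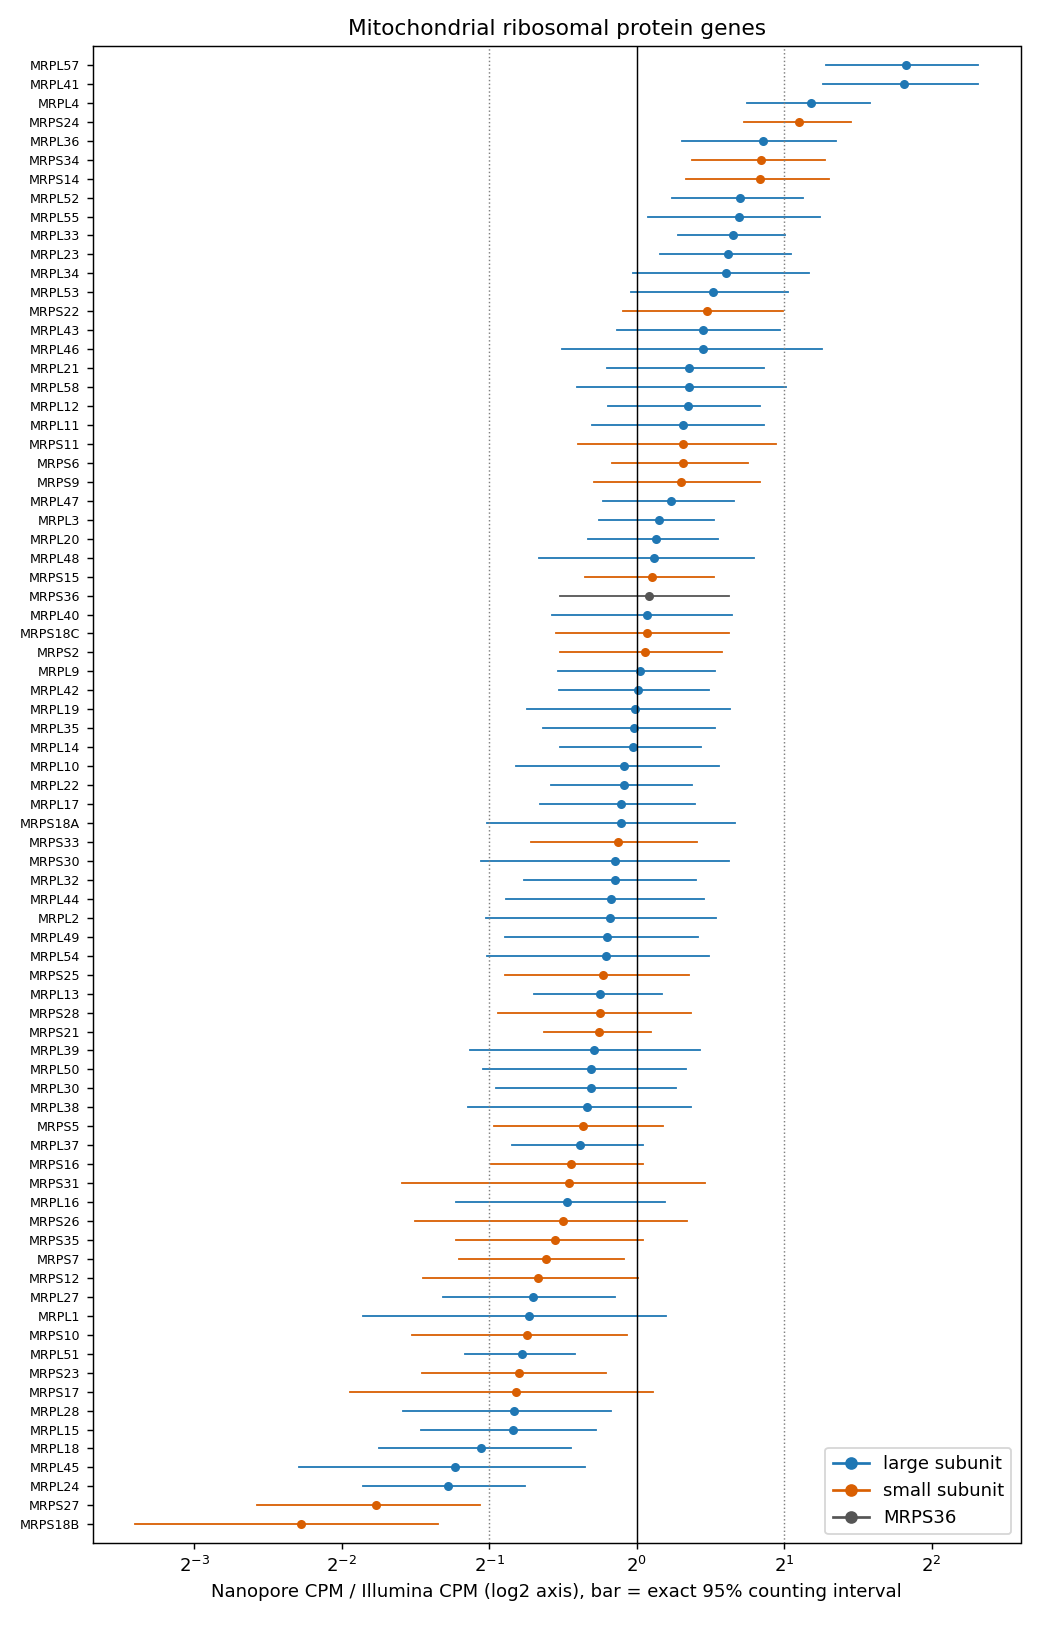
Points give the Nanopore to Illumina CPM ratio of each of the 78 genes on a log2 scale, ordered by value, with bars for the exact 95% interval of counting error. The 4 genes at the top and the 5 at the bottom are past 2-fold, and the intervals of 55 genes hold a ratio of 1.

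The members with the highest Nanopore to Illumina ratios were MRPL57 and MRPL41, which code for small large-subunit proteins without a bacterial counterpart. MRPL57 (ENSG00000173141, hg38 chr13:21176658-21179084, plus strand) had 33 Nanopore counts and 4431 Illumina counts, or 81.8 and 23.1 CPM. Its CPM ratio was 3.54 (exact 95% interval 2.43 to 4.98), a log2 ratio of 1.78 (exact binomial test, Benjamini-Hochberg adjusted p = 1.99e-08). MRPL41 (ENSG00000182154, chr9:137551879-137552555, plus strand) had 32 and 4328 counts, or 79.4 and 22.6 CPM. These gave a ratio of 3.52 (2.40 to 4.97), 1.77 on the log2 scale (exact binomial test, Benjamini-Hochberg adjusted p = 4.01e-08). In both genes the canonical transcript has 2 exons, and neither gene shares exonic bases with another annotated gene. By Nanopore both stood above the family median, and by Illumina they were among the lowest members in CPM.

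The other genes past 2-fold toward Nanopore were MRPL4 and MRPS24, counterparts of bacterial uL4, which lines the peptide exit tunnel, and of uS3, which lies where the messenger enters the small subunit. MRPL4 (ENSG00000105364, chr19:10251901-10260055, plus strand) had 50 and 10482 counts, or 124 and 54.7 CPM, a log2 ratio of 1.17 (exact binomial test, Benjamini-Hochberg adjusted p = 2.48e-06). MRPS24 (ENSG00000062582, chr7:43866558-43869893, minus strand) had 65 and 14419 counts, or 161 and 75.2 CPM, a log2 ratio of 1.09 (exact binomial test, Benjamini-Hochberg adjusted p = 3.86e-07). Both share exonic bases with other annotated genes, MRPL4 with the antisense RNA genes LIMASI and ENSG00000267105 and MRPS24 with the readthrough gene URGCP-MRPS24. LIMASI had 54 Nanopore and 467 Illumina counts, ENSG00000267105 had 44 and 1120, and URGCP-MRPS24 had 71 and 10982. How reads in shared exons were assigned is not given in the sources used here, so these values of MRPL4 and MRPS24 are uncertain, and the part of the overlap in the ratios was not tested.

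At the other end stood MRPS18B, which codes for a small-subunit protein of the S18 family. MRPS18B (ENSG00000204568, chr6:30617840-30626395, plus strand) had 9 Nanopore counts against 20705 Illumina counts, or 22.3 against 108 CPM. The CPM ratio was 0.207 (exact 95% interval 0.0945 to 0.392), a log2 ratio of -2.22 (exact binomial test, Benjamini-Hochberg adjusted p = 3.54e-09). The gene lies in the major histocompatibility region, for which hg38 carries alternate versions of the chromosome, and its transcript aligned to 6 such alternate contigs at 100% identity. The coding part of its exon at chr6:30625502-30625794 (hg38, plus strand, 293 bases) is printed because these letters are present unchanged on all 6 contigs, so that a read of them fits several places in the build.

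MRPS18B: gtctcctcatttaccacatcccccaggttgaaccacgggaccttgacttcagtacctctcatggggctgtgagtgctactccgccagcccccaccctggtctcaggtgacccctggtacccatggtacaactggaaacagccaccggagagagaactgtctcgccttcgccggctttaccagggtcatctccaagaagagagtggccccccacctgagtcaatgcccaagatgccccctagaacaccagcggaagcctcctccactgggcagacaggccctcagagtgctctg

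A copy on an alternate contig was also found for MRPL45, at 99.9% identity on 1 contig, and for MRPS36, at 99.9% on 1 contig. MRPL45 (ENSG00000278845, chr17:38297023-38323217, plus strand), whose protein anchors the ribosome to the inner membrane, had 10 and 11154 counts, or 24.8 and 58.2 CPM. Its log2 ratio was -1.20 (exact binomial test, Benjamini-Hochberg adjusted p = 0.00832). MRPS36 had 27 and 12112 counts and a log2 ratio of 0.08, so having such a copy did not go with a low ratio in all 3 genes. Among the 322 tested genes with such a copy, 69.6% were past 2-fold toward Illumina and 10.2% toward Nanopore. Which contigs the authors' references held is not given in the sources used here, and the part of these copies in the ratios was not tested.

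The remaining genes past 2-fold toward Illumina have no such copy. MRPS27 (ENSG00000113048, chr5:72214953-72321717, minus strand), a pentatricopeptide repeat protein of the small subunit, had 16 and 25850 counts, or 39.7 and 135 CPM, a log2 ratio of -1.74 (exact binomial test, Benjamini-Hochberg adjusted p = 1.35e-08). MRPL24 (ENSG00000143314, chr1:156737303-156741590, minus strand), the counterpart of bacterial uL24, had 29 and 33491 counts, or 71.9 and 175 CPM. Its log2 ratio was -1.27 (exact binomial test, Benjamini-Hochberg adjusted p = 2.35e-07). MRPL24 and MRPS27 were thus among the higher members by Illumina, while by Nanopore MRPL24 was close to the family median and MRPS27 below it. MRPL18 (ENSG00000112110, chr6:159789812-159798436, plus strand), the counterpart of the bacterial protein that binds 5S ribosomal RNA, had 21 and 20753 counts, or 52.1 and 108 CPM. Its log2 ratio of -1.04 was just past 2-fold (exact binomial test, Benjamini-Hochberg adjusted p = 0.000797), and scaling by TMM or by the median ratio brought it within 2-fold.

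With Illumina TPM by canonical length, the median over the 78 genes was -0.34 and that over all tested genes 0.48, so the family's median lay above that of all tested genes on the CPM scale and below it per length. On that scale 10 members were past 2-fold toward Nanopore and 13 toward Illumina, against 34.8% and 11.1% of all tested genes. The share of members within 2-fold was 70.5%, against 54.1% of all tested genes and 60.9% of the protein-coding genes in the same CPM range. With union length 11 members were past 2-fold toward Nanopore and 19 toward Illumina, against 33.2% and 12.8% of all tested genes. The shares within 2-fold were then 61.5% of members, 54.0% of all tested genes and 60.4% of those in the same range. The ratios of single genes above are between CPM values, and dividing the Illumina counts by length changed some of them. With Illumina TPM by canonical length in place of CPM, MRPS18B stood at -2.37, MRPL24 at -2.08, MRPL18 at -1.71, MRPL45 at -1.19, MRPL57 at 2.28 and MRPL4 at 0.82 on the log2 scale. MRPS24 went to -0.12 on that scale, and with lengths from the union of exons MRPS27 went to 1.05 and MRPL41 to -0.40. The length of MRPL41 is 582 bases by either definition. Its Illumina level was 105 TPM by union and 60.1 TPM by canonical length, which differ only through the scaling to a common sum. The union length of MRPS27, 19524 bases, is far above its canonical transcript of 2770 bases, and with the canonical length its ratio was -0.91. The genes MRPS18B, MRPL24, MRPL18 and MRPL45 were past 2-fold toward Illumina under both length scalings, and MRPL57 was past it toward Nanopore under both.

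Among the 69 genes within 2-fold, 12 had an adjusted p under 0.05, 6 in each direction. Of the 6273 tested genes within 2-fold, 4.93% passed toward Nanopore and 10.9% toward Illumina. Those higher by Nanopore were MRPL36, MRPS34, MRPS14, MRPL52, MRPL33 and MRPL23. Those higher by Illumina were MRPL15, MRPS23, MRPL28, MRPL51, MRPL27 and MRPS7. Some of these directions turned when the Illumina counts were divided by canonical length, where MRPL36 stood at -0.49, MRPL33 at -0.95, MRPL23 at -0.58 and MRPS23 at 1.03. On the CPM scale the largest of these ratios was that of MRPL36, the counterpart of bacterial bL36, with 32 and 8424 counts and a log2 ratio of 0.84. MRPL51, the member with the most Illumina counts, had 61 and 49701, or 151 and 259 CPM, a log2 ratio of -0.77. Counting all 78 genes, an adjusted p under 0.05 was reached by 10 toward Nanopore and 11 toward Illumina, against 20.2% and 27.2% of all tested genes, and 57 did not pass. For those 57 the depth limits what can be seen: the 19 Nanopore counts of MRPL50, for example, had a Wilson interval from 30.2 to 73.6 CPM.

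The S18 family has 3 members in human mitochondria, whose proteins descend from the same bacterial protein and take separate places on the ribosome. MRPS18A, in the large subunit, had 13 and 6651 counts, or 32.2 and 34.7 CPM. MRPS18C, in the small subunit, had 26 and 11773 counts, or 64.5 and 61.4 CPM. Their log2 ratios were -0.10 and 0.07, while that of MRPS18B was -2.22. The libraries therefore ordered the 3 genes differently. MRPS18B was the highest of them by Illumina and the lowest by Nanopore, where its interval of 11.7 to 42.4 CPM overlapped that of MRPS18A, 18.8 to 55.2. This order is uncertain, since MRPS18A and MRPS18C share exonic bases with genes on the opposite strand and MRPS18B has copies on alternate contigs.

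By place on the ribosome, genes past 2-fold lay in both directions in each subunit. The 51 large-subunit genes had a median log2 ratio of -0.02 and the 26 small-subunit genes -0.25. Of the former, 3 were past 2-fold in each direction, and of the latter 1 was higher by Nanopore and 2 by Illumina. Over all tested genes, 19.2% were past 2-fold toward Nanopore and 30.2% toward Illumina. The stalk genes are MRPL1, for the stalk on the side where transfer RNAs leave, and MRPL10, MRPL11 and MRPL12, for the stalk that recruits translation factors. All 4 were within 2-fold, beside 50.5% of all tested genes, and none had an adjusted p under 0.05. MRPL12, which forms the flexible stalk, had 33 and 12354 counts and a log2 ratio of 0.34.

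Of 6 genes for the central protuberance, the crown of the large subunit, only MRPL18 was past 2-fold. Of 6 listed genes around the exit tunnel and membrane anchor, MRPL24 and MRPL45 were, both toward Illumina. MRPL4, whose bacterial counterpart also lines the exit tunnel, was outside that list. It was past 2-fold toward Nanopore, with a log2 ratio of 1.17. The 29 genes whose proteins have no bacterial counterpart had a median of -0.17, with 2 past 2-fold in each direction. The 48 with a counterpart had a median of -0.05, with 2 higher by Nanopore and 3 by Illumina. The background for the counts in these groups was again 19.2% and 30.2% of all tested genes. MRPS12, whose bacterial counterpart lies at the decoding centre, had 17 and 12874 counts and a log2 ratio of -0.66. MRPL58, which kept the activity of a peptidyl-tRNA hydrolase that releases stalled chains, had 18 and 6701 counts and a log2 ratio of 0.34. Neither MRPS12 nor MRPL58 passed the test.

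Transcript length went with the ratio in part. The 26 genes with the shortest canonical transcripts, 496 to 999 bases, had a median log2 ratio of 0.33, and 17 of them were above 0. The next 26, of 1009 to 1553 bases, had a median of -0.21, and the 26 longest, of 1605 to 15557 bases, a median of -0.16 with 6 above 0. Spearman's rho between ratio and canonical length was -0.32 over the 78 genes and -0.37 over all tested protein-coding genes. These are descriptions across genes of the same 2 libraries, which are not independent replicates. With union length rho was -0.03.

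The 1037 tested protein-coding genes with a canonical transcript from 496 to 1242 bases, no longer than that of the median member, had a median log2 ratio of 0.30, and 67.9% lay within 2-fold. Of 5 members whose canonical transcript has at most 2 exons, MRPL57, MRPL41, MRPL36, MRPL34 and MRPL50, the ratios were 1.78, 1.77, 0.84, 0.59 and -0.30. MRPL34 had 25 and 7828 counts, and MRPL50 had 19 and 11181. Across the 78 genes rho between the Nanopore and Illumina CPM was 0.51, against 0.69 over all tested protein-coding genes, whose range of levels is wider.

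**Figure D3:**
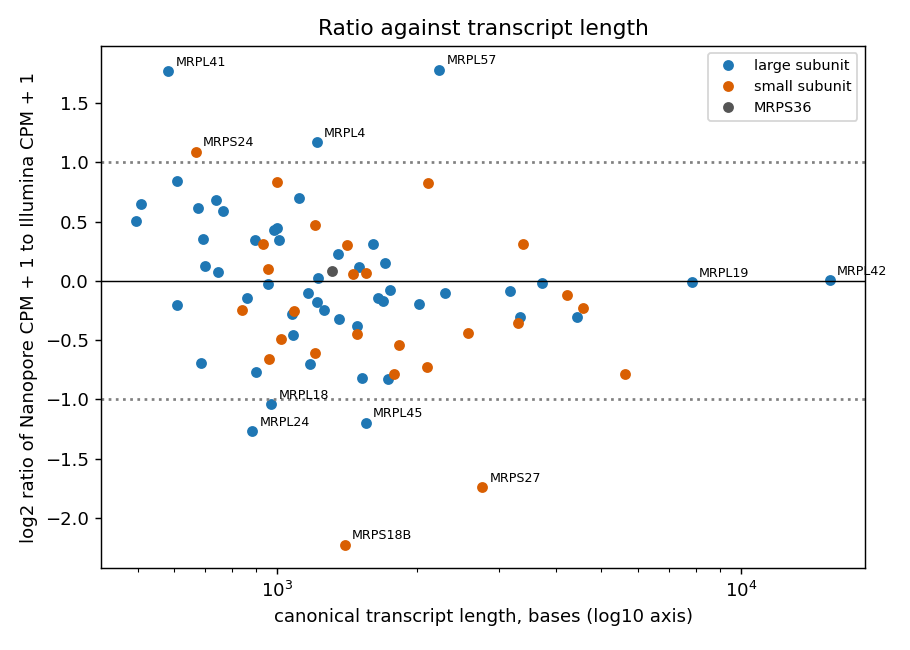
Points are the 78 genes, with canonical transcript length in bases on a log horizontal axis and the log2 Nanopore to Illumina ratio on the vertical axis. The median is 0.33 among the 26 shortest and -0.16 among the 26 longest transcripts, and MRPL57 stands apart as a longer transcript with a ratio of 1.78.

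Many of these genes lie against another gene. Of the 78, 41 (52.6%) share exonic bases with another annotated gene on either strand, against 60.0% of all tested genes. For 40 of them the partner is in the tables, which gave 56 pairs, 38 on opposite strands and 18 on the same strand. Across opposite strands the partner's Nanopore count lay within 10% of the member's in 12 of 38 pairs and was equal to it in 6. By Illumina, 0 of the 38 pairs came within 10%. The median partner had 86.5% of its member's counts by Nanopore and 12.7% by Illumina.

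MRPS16 is an example, with 33 Nanopore counts beside 33 for the antisense gene DNAJC9-AS1, and 21372 beside 2546 by Illumina. MRPS2 had 29 counts beside 29 for the antisense gene ENSG00000226706, and by Illumina 13255 beside 923. MRPL44 had 20 beside 20 for ENSG00000228802, and by Illumina 10722 beside 238. In these pairs the Nanopore counts were the same on both strands, while the Illumina counts of the partner were a small part of the member's.

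The partner was a protein-coding gene in some pairs. MRPS18A and RSPH9, a radial spoke protein of motile cilia, had 13 counts each by Nanopore, and 6651 and 2232 by Illumina. MRPS18C and ABRAXAS1, a scaffold of a BRCA1 complex, had 26 each by Nanopore, and 11773 and 4028 by Illumina. MRPL51 and NCAPD2, a condensin subunit, differed from these, since their Illumina counts were also close, at 49701 and 54766, beside 61 and 56 by Nanopore. The stretches below are coding parts of members that the annotation also assigns to an exon of the opposite gene, shown because a read of these bases lies in both genes. They are hg38 chr6:43671765-43671906, minus strand, 142 bases, shared with RSPH9, and chr9:135503542-135503701, plus strand, 160 bases, shared with ENSG00000226706.

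MRPS18A: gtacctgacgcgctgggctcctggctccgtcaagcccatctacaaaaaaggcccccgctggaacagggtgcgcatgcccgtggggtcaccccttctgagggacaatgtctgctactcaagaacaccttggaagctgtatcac

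MRPS2: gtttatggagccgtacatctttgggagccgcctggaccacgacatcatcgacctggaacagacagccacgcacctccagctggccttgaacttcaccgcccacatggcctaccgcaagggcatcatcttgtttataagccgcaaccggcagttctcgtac

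Near-equal counts across strands were also seen outside the family. In pairs of other protein-coding genes with at least 9 Nanopore counts, the partner on the opposite strand was within 10% in 20.4% of 3355 pairs by Nanopore and in 2.65% by Illumina. On the same strand, 7 of 18 member pairs were within 10% by Nanopore and 3 by Illumina, against 20.7% and 6.82% of 1789 pairs of other genes. MRPL53 and CCDC142, whose exons overlap on the same strand, had 31 counts each by Nanopore and 10305 and 10067 by Illumina. MRPS6 and ENSG00000272657 had 41 each by Nanopore, and 15689 and 3728 by Illumina.

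The 41 genes that share exonic bases had a median log2 ratio of 0.06 and the 37 that share none a median of -0.15. Of the latter, 2 were past 2-fold toward Nanopore and 4 toward Illumina, against 5.35% and 38.5% of tested protein-coding genes that share none. How the counting treated strand and overlap is not given in the sources used here, and the part of double assignment in the Nanopore counts was not tested. Levels of members named beside a partner are uncertain for that reason.

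**Figure D4:**
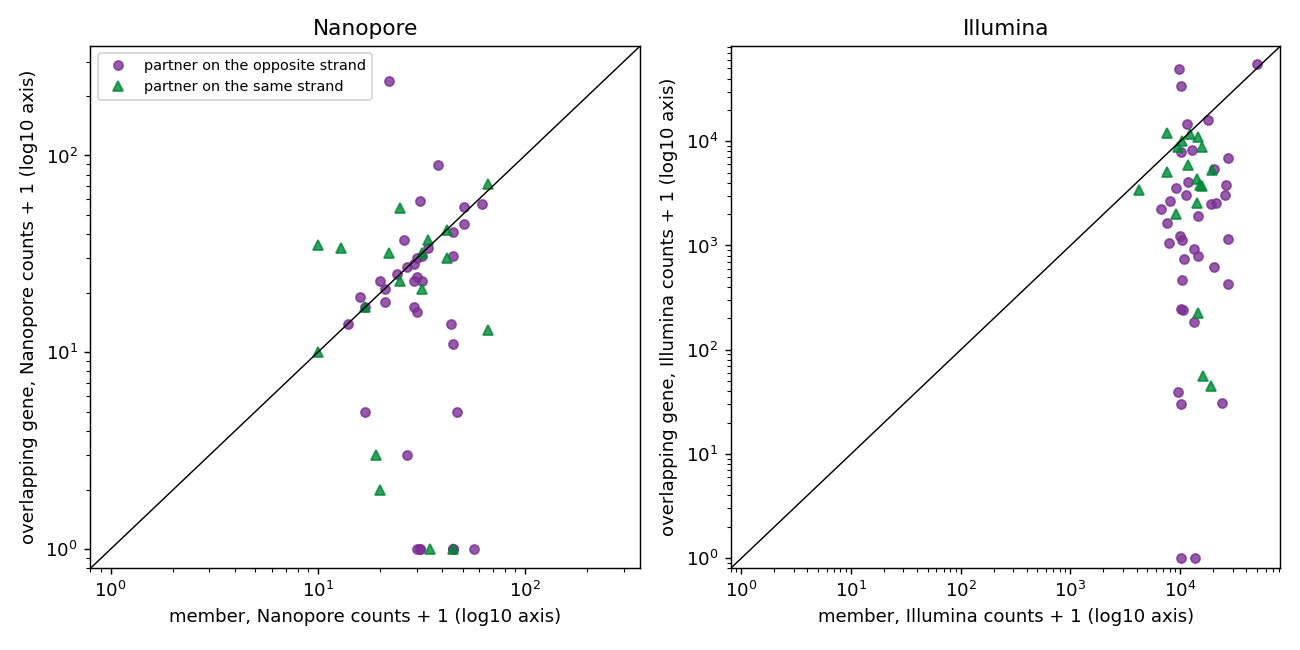
For each of the 56 pairs of a member and a gene that shares its exonic bases, the partner's count is plotted against the member's count on log axes, by Nanopore and by Illumina, with opposite-strand and same-strand pairs marked. By Nanopore 19 of the 56 pairs lie within 10% of equality and by Illumina 3 do.

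The promoters of these genes were examined for short motifs of factors known at housekeeping and mitochondrial genes. RefSeq start sites were matched by symbol for 69 of the 78 genes. Where several starts were listed for a gene the first was used, and other starts were not searched. The window ran from 250 bases before to 50 bases after the start (GRCh38.p14). The ETS-family core CCGGAAG, searched on both strands, was present in 29 of 69 windows (42.0%), against 21.2% of 8436 tested protein-coding genes and 10.7% of all 27305 windows. The YY1 core ATGGCGG was present in 24 (34.8%), against 11.7% and 5.72%. Within the 250 upstream bases only MRPL19, MRPL32, MRPL36, MRPL47 and MRPL52 held it. Most of its matches therefore lay in or across the 50 bases after the start, and the background shares were not split by position. A total of 7 windows held both. The letters TATAAA were present in 2 windows (2.90%), against 5.12% of tested protein-coding genes, and the NRF1 palindrome in 1 (1.45%), against 2.52%.

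A match is a description of letters and not of binding. The upstream 250 bases of MRPL20 (chr1:1407294-1407543, minus strand) and of MRPL58 (chr17:75012420-75012669, plus strand) are printed as examples. Each holds the ETS core at 2 positions, given in capitals, in either orientation. MRPS22, MRPL51 and MRPL27 also held it at 2 upstream positions, and MRPS34 at 3. MRPL20 had 44 and 19150 counts in the libraries.

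MRPL20: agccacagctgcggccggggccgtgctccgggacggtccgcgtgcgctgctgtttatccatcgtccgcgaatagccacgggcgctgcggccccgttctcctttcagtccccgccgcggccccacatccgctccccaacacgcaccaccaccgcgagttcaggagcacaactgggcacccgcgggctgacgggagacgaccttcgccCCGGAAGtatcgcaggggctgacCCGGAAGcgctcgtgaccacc

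MRPL58: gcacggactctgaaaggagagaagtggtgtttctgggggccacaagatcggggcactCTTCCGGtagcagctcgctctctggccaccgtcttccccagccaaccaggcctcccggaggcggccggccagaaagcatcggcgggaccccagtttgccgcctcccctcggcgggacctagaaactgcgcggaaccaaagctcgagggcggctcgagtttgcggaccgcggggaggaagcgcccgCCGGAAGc

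Other genes of mitochondrial translation were read beside the family. Of 5 mitoribosomal proteins with other symbols, only GADD45GIP1 was past 2-fold, with 81 and 14318 counts, or 201 and 74.7 CPM, and a log2 ratio of 1.42 (exact binomial test, Benjamini-Hochberg adjusted p = 2.88e-13). Of all tested genes, 19.2% were past 2-fold toward Nanopore and 30.2% toward Illumina. CHCHD1 had 43 and 10232 counts and a log2 ratio of 0.99. DAP3, a GTP-binding protein of the small subunit, had 33 and 28994 counts and -0.88. PTCD3, a pentatricopeptide repeat protein of the small subunit, had 14 and 12042 counts and -0.84, which turned to 1.20 per canonical length, and AURKAIP1 had 44 and 15325 and 0.44.

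Of 24 tested genes for assembly of the ribosome and modification of its RNA, 0 were past 2-fold toward Nanopore and 5 toward Illumina, against 19.2% and 30.2% of all tested genes. Their median log2 ratio was -0.48, beside -0.42 over all tested genes. METTL17, an assembly factor of the small subunit, had 9 and 12681 counts and a log2 ratio of -1.53. MRM2, a methyltransferase of the large ribosomal RNA, had 8 and 8632 and -1.14. RBFA had 4 and 6871 and -1.75, and MTG2, a GTPase of large-subunit assembly, had 3 and 5420, a CPM ratio of 0.263 (exact 95% interval 0.0543 to 0.770). Those 4 also had an adjusted p under 0.05, and NSUN4 with 3 and 4094 counts, a ratio of 0.348 (0.0718 to 1.02), did not. MRM1 was the member of that list without a Nanopore count, beside 1585 counts by Illumina, or 8.27 CPM. The Wilson interval of its 0 counts reaches 9.53 CPM, so a difference was not detectable at this depth.

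Of 11 translation factors, 2 were past 2-fold toward Nanopore and 3 toward Illumina. The background was 19.2% and 30.2% of all tested genes, and the median of -0.42 was that of all tested genes. MTIF3, initiation factor 3, had 52 and 5176 counts, a log2 ratio of 2.21 (exact binomial test, Benjamini-Hochberg adjusted p = 7.12e-18). GFM2, which splits the ribosome after termination, had 52 and 8189 and a log2 ratio of 1.57 (exact binomial test, Benjamini-Hochberg adjusted p = 1.96e-10). Both MTIF3 and GFM2 share exonic bases with another gene. TSFM, the exchange factor of TUFM, had 8 and 10570 counts and -1.43, and passed the test. MTRFR, a rescue factor of stalled ribosomes, had 1 and 4129 counts, a CPM ratio of 0.115 with an exact 95% interval from 0.00291 to 0.642. MTRF1 had 1 and 1648, a ratio of 0.289 (0.00730 to 1.61), and did not pass. With 1 count each, the sizes of these last ratios are hardly known.

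SLIRP and LRPPRC, whose proteins form a complex that stabilises mitochondrial messengers, lay on opposite sides. SLIRP had 171 and 27682 counts and a log2 ratio of 1.55, and LRPPRC had 29 and 30819 and -1.15. Their canonical transcripts are 376 and 6603 bases long. With Illumina TPM by canonical length the 2 ratios changed sign, to -0.49 and 0.91. Both had an adjusted p under 0.05 on the CPM scale. The RNAs of the ribosome itself, MT-RNR1 and MT-RNR2, had 571 and 131035 counts and 2186 and 731727 counts, with log2 ratios of 1.05 and 0.51. They are coded in mitochondrial DNA and their level in libraries of polyadenylated RNA is not a measure of ribosome content.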

How the data were processed

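The authors deposited whole-number gene counts, without normalization, for 58735 Ensembl identifiers in each of 2 libraries, 1 per platform. The submitters' processing notes list hg38, minimap2 2.11-r797, HISAT2 2.1.0 and featureCounts, with no roles or options. The names of the deposited counts pair minimap2 with Nanopore and HISAT2 with Illumina. The treatment of strand, overlapping genes and reads with several placements is not given in the sources used here, and it bears on the genes with overlaps or copies. Whether the Nanopore reads were corrected before counting is not stated either, and the header of the Nanopore counts carries a tag that the labels do not explain.

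GENCODE release 44 (hg38) gave names, exons and lengths, and 58207 identifiers matched it. Counts were divided by the library total (CPM). Ratios used a pseudocount of 1 CPM, which understates differences of rare genes. Each gene whose mean reached 5 CPM was given an exact binomial test, two-sided and conditional on the totals (scipy 1.17.1), with p-values adjusted by the Benjamini-Hochberg method over 12414 genes. With 1 library per platform no count model was fitted and the test compares these libraries only. The test was also run on simulated Poisson counts, the model it assumes. Those counts hold no variation from amplification or library, so that run cannot show how the test behaves under such variation. Intervals are 95% Wilson intervals for CPM and shares, and exact intervals for ratios. Amplified reads are not independent molecules, so intervals cover counting error only.

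Copies on alternate contigs needed at least 80% of the canonical transcript aligned at no more than 5% divergence (minimap2 2.31). Partners share at least 1 exonic base. Alternatives were TMM scaling (edgeR 4.0.16 in R 4.3.3), median-ratio scaling, other pseudocounts and filters, TPM by canonical or union length, and leaving out genes with shared exons or copies. Named genes were the 8 highest and 8 lowest ratios, the 5 highest and 5 lowest Illumina TPM, the S18 genes, members with a partner within 10% by Nanopore, and pathway genes past 2-fold with an adjusted p under 0.05. Others were named after their values were seen, as were the motifs, the length and abundance backgrounds, and the sequences. The members and lists were chosen with earlier results of these data known. The result of 1 marker list is not reported here.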

Additional observations from a re-analysis of the deposited data

How the results depend on the processing

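The median ratio of the 78 genes, -0.09, was near 0 and its sign depended on the scaling. It was -0.006 with TMM and 0.033 with median-ratio scaling, which moved the median of all tested genes by 0.12 as well. With Illumina TPM by canonical length it was -0.34. Genes past 2-fold numbered 4 toward Nanopore and 5 toward Illumina. Union-length TPM gave 11 and 19, canonical-length TPM 10 and 13. Leaving out genes with shared exons left 2 toward Nanopore, and leaving out genes with a contig copy left 3 toward Illumina. Over all tested genes the calls past 2-fold with an adjusted p under 0.05 were 2197 and 2699. They became 3405 and 945 with union-length TPM, 3494 and 814 with canonical-length TPM, and 447 and 1274 without shared exons. At a minimum of 20 CPM they were 1174 and 2130. Fewer genes were tested without shared exons and at that minimum, so these counts are not shares of the same total. The family's Illumina share of 0.575% became 0.720% with union-length TPM, 0.740% with canonical-length TPM, 0.599% without shared exons and 0.569% without contig copies.

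Among single genes checked that passed the test by CPM or by TPM, these changed sign with division by length. With union length the log2 ratios were -0.52 for AURKAIP1, 2.43 for LRPPRC, -1.07 for MRPL12, 1.64 for MRPL19, -0.17 for MRPL33, -0.10 for MRPL36, -0.40 for MRPL41, -1.45 for MRPL53, -0.92 for MRPL58, -0.61 for MRPL9, 0.43 for MRPS23, 2.41 for MRPS25, 1.05 for MRPS27, -0.46 for MRPS34, -0.70 for MRPS36, -0.45 for MT-RNR1, -0.29 for MT-RNR2 and 1.00 for PTCD3. With canonical length they were -0.59 for AURKAIP1, 0.91 for LRPPRC, 2.21 for MRPL19, -1.01 for MRPL20, -0.58 for MRPL23, 1.18 for MRPL30, -0.95 for MRPL33, -0.49 for MRPL36, -1.12 for MRPL53, 1.03 for MRPS23, -0.12 for MRPS24, 1.29 for MRPS25, 1.20 for PTCD3 and -0.49 for SLIRP. MRPL41, MT-RNR1 and MT-RNR2 have equal union and canonical lengths, so their TPM values by the different lengths differ only through the scaling to a common sum. The cause of the changes of sign was not otherwise tested. With TMM and median-ratio scaling, MRPL27, MRPL28, MRPS7, PTCD3, TUFM and MRM2 no longer passed the test, and with median-ratio scaling MRPS23 did not either. With no filter on low counts MRM2, MRPS7 and PTCD3 did not pass. No paired analysis was possible because each platform had 1 library. Nanopore depth sets the limit, most for the members with the fewest counts: at 9 counts the interval runs from 11.7 to 42.4 CPM.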

Other observations

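Pseudogenes of this family are common in the human genome and can take reads from their parents. Of 79 mitoribosomal pseudogenes in the tables, 3 had a Nanopore count, 1 each for MRPS18CP7, MRPS31P5 and MRPS31P4, and 18 had an Illumina count. Of all 58735 identifiers, 15660 had a Nanopore count and 27323 an Illumina count. Together the pseudogenes held 3 and 2087 counts, beside 2206 and 1102231 for the 78 genes. Most of the Illumina counts were those of MRPS31P4 with 1164 and MRPS31P5 with 718, which both share exonic bases with another annotated gene. Their parent MRPS31 had 9 and 5896 counts and a log2 ratio of -0.45.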
